A study of Mus musculus with 47 samples.

Results

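The genes described here are 69 motile cilium genes of the mouse hypothalamus, chosen by symbol from a table of 14221 genes counted by RNA-seq. Families of axonemal proteins gave 60 of them, namely axonemal dynein chains and their assembly factors, cilia and flagella associated (CFAP) proteins, radial spoke heads, the dynein regulatory complex, tektins and 4 sperm-associated antigens, and 9 were taken by name (Foxj1, Rfx2, Rfx3, Ccdc39, Ccdc40, Hydin, Tppp3, Dynlrb2 and Ak7). The hypothalamic tissue came from 47 male mice of the ob/ob strain, which lack functional leptin, were 11 weeks old and had received 3 µg of FGF1 or vehicle into the cerebral ventricles (icv). On Day 1 there were 10 FGF1-treated mice and 4 vehicle-treated mice labelled non-diabetic. On Day 5 there were 9 FGF1-treated mice, 7 vehicle-treated mice labelled non-diabetic and 7 labelled diabetic, and on Day 42 there were 5 FGF1-treated mice and 5 vehicle-treated mice labelled non-diabetic. Every vehicle group was pair fed to the FGF1 group, every mouse carried the ob/ob mutation, and no lean or uninjected mouse was among the samples. Each library was labelled as a separate mouse, and all libraries of a day shared 1 preparation code, so day and preparation cannot be told apart.

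Ependymal cells line the cerebral ventricles, and their beating tufts of motile cilia move cerebrospinal fluid along the ventricular wall. The shaft of such a cilium, the axoneme, is built of microtubule doublets on which dynein arms walk, with radial spokes, a nexin-dynein regulatory complex and a central apparatus that coordinate the stroke. Foxj1 and the RFX factors are the transcription factors known for switching on these genes, and RFX factors bind a palindromic element called the X-box. Per the study's methods the tissue was a hypothalamic punch taken from a coronal section. In RNA of such a punch a lower level can mean fewer ciliated cells, less RNA per cell or less ventricular wall in the punch, among others. These cannot be told apart here.

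Promoter sequence is shown because RFX factors are known to act at the start of such genes. It is given for the 6 members with a window whose levels were lower after FGF1 on Day 1 by the largest fold and for Cfap45, the member that was higher. RefSeq windows of 300 bases (250 before to 50 after a gene's start, assembly GRCm38.p6) were found for 60 of the 69 members. No window was used for Cfap157, Cfap54, Cfap65, Cfap97, Dnah3, Foxj1, Rsph1, Rsph4a and Tppp3. In the sequences below, capitals mark the 6 letters GTTGCC, a common arm of the X-box, or their reverse complement. Dynlrb2 (chr8:116504765-116505064, plus strand), Tekt4 (chr17:25471340-25471639, plus strand) and Dnah10 (chr5:124724835-124725134, plus strand) hold these letters. Dnah14 (chr1:181576343-181576642, plus strand), Dnah12 (chr14:26691304-26691603, plus strand), Rsph14 (chr10:75032537-75032836, minus strand, the first of its 2 windows) and Cfap45 (chr1:172520880-172521179, plus strand) do not. Positions are counted from the RefSeq start, which lay over 1000 bases from the start of the GENCODE gene for 4 of the 60 members. Among those shown these were Tekt4, whose RefSeq start lies 16975 bases inside the GENCODE gene, and Dnah12, whose RefSeq start lies 1720 bases before it.
Dynlrb2: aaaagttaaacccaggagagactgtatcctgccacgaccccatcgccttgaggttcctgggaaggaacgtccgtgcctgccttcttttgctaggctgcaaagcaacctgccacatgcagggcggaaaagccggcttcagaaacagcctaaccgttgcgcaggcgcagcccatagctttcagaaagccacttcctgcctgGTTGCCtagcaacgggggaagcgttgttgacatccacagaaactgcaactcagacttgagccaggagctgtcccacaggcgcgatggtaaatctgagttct
Tekt4: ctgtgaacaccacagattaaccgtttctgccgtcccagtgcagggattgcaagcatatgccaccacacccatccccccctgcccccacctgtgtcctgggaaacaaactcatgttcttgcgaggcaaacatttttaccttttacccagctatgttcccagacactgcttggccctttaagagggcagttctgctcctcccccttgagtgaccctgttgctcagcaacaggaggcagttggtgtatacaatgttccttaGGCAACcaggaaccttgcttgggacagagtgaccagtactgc
Dnah10: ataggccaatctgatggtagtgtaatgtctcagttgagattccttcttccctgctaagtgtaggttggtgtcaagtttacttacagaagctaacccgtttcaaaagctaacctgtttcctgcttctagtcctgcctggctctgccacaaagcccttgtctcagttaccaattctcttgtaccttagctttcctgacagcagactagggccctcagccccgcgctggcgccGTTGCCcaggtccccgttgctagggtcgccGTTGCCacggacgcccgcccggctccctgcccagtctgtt
Dnah14: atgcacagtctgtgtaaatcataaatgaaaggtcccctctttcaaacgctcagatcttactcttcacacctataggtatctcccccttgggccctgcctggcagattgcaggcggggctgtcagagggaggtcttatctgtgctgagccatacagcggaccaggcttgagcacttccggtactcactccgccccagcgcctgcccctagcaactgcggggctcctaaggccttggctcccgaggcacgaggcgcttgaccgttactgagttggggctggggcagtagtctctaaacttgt
Dnah12: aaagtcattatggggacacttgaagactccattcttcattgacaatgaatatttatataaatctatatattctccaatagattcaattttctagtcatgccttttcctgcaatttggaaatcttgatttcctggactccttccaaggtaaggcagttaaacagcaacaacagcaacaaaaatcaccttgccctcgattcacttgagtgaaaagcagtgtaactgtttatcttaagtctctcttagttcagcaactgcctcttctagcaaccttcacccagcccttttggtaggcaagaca
Rsph14: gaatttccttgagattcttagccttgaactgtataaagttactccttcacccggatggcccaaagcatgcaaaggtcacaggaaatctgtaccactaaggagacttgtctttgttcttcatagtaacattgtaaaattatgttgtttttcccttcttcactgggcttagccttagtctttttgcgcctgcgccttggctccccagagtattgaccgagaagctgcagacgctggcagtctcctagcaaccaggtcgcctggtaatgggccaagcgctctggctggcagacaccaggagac
Cfap45: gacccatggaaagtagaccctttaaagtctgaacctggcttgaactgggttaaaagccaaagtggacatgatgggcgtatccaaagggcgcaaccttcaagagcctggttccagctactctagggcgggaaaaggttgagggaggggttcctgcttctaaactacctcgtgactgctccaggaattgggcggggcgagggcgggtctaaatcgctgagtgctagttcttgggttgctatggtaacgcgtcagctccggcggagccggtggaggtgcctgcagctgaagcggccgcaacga

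On either strand, GTTGCC occurred in the windows of 27 of 60 members (45%), against 1705 of 11167 genes of the table with a window (15.3%) and 12.5% of all 32851 windows of the reference. Members that were lower after FGF1 on Day 1, as described next, held it in 13 of 19 cases (68.4%), and the other members in 14 of 41 (34.1%). The shorter run GTTGC, which contains fewer letters of the same arm and was searched after the Cfap45 and Dnah14 windows had been seen, occurred in 48 of 60 members (80%) and in 40.3% of the table's genes, with all 19 of the lower members and 29 of the 41 others (70.7%) holding it. The letters TAAACA, the core of forkhead motifs, occurred in 12 of 60 members (20%), in 10.5% of the table's genes and in 3 of the 19 lower members (15.8%). A match to these letters is a description of the sequence and not a binding site.

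**Figure D1:**
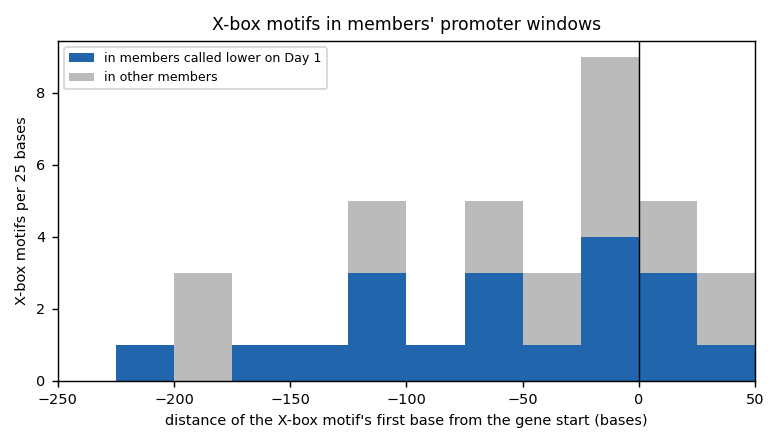
Position of the 37 GTTGCC motifs in the promoter windows of 27 motile cilium genes. The x axis is the distance from the gene start in bases, the y axis the number of motifs in bins of 25 bases, and the blue part of each bar belongs to members that were lower on Day 1. Of the motifs 29 lay before the start and the furthest began 219 bases before it.

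Of the 37 motifs 26 (70.3%) began between 100 bases before and 50 bases after the start, an interval of 150 of the 300 bases, and among the 1932 motifs of all genes 1047 did (54.2%). Their median position was 35 bases before the start. Of the members 7 held more than 1, and Cfap298 held 4. The Dynlrb2 motif began 51 bases before the start and is followed by gcaac, the reverse complement of GTTGC, while the motif of Tekt4 lay 8 bases after the start on the opposite strand and those of Dnah10 at 20 bases before and 10 bases after.

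Values are given as CPM, the reads of a gene relative to all reads of its library, after scaling by library size factors. Total counts per library ran from 19416026 to 47082403 on Days 1 and 42, except for FGF1-treated replicate 17 of Day 1 with 1243280, and from 7579695 to 12451642 on Day 5, except for FGF1-treated replicates 8 and 9 with 30009258 and 27922117. In replicate 17 a read is worth 0.815 CPM, a count of 0 allows up to 2.44 CPM (3 counts), and Cfap99, Dnah8 and Rsph14 were at 0, which no member was in any other library. Every gene of the table passed the filter on low counts, so all 69 members were tested. Between 0 and 2 genes of the table were at 0 in a Day 5 library. In libraries of Days 1 and 42 there were 78 to 136 such genes, and 539 in replicate 17. Whether the table had been filtered on detection on Day 5 before deposit is not given in the sources used here and was not tested. A list of 15 genes known from hypothalamic nuclei and 15 neuronal genes was present in every group, with summed levels of at least 441 and 5881 CPM per library, and 23 ependymal genes outside the chosen set summed to between 190 and 450 CPM.

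The members were expressed at a low level, with means over all libraries from 1.23 to 103 CPM and a median of 9.61 CPM. Per kilobase of exon, which allows genes to be compared, the highest mean levels were those of Tppp3 at 44.5 CPM per kb and Cfap36 at 37.5, followed by Cfap20 at 13.4, Cfap298 at 13.2 and Rsph9 at 12.4. Tppp3 encodes a tubulin polymerisation protein of multiciliated cells that other brain cells also use, and Cfap36 is likewise not particular to motile cilia. The lowest were Dnah8 at 0.0824 and Dnah17 at 0.0859 CPM per kb, dynein heavy chains best known from sperm. Among the dynein heavy chains Dnah1 had the highest level per length, at 5.20 CPM per kb. In the other classes the highest per length were Dynlrb2 (7.87 CPM per kb), Dnaaf5 (2.73), Drc1 (8.17), Tekt5 (5.02), Spag8 (3.13) and Rfx3 (6.20).

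Levels in vehicle-treated mice labelled non-diabetic differed between days for several members. The median level of Dnaaf2, a dynein assembly factor, was 0.954 CPM on Day 1, 10.1 on Day 5 and 1.18 on Day 42. Dnaaf2 shares exon bases with Gm49383 and Gm49384 on its own strand and with 9330151L19Rik on the opposite strand, by up to 1107 of its 3390 exon bases, so its level is uncertain. For Dnah12 the medians were 6.81, 22 and 13.6 CPM, for Foxj1 8.78, 21.7 and 7.64 CPM, and for Cfap65 45.6, 11.8 and 26.3 CPM. These differences between days lie between preparations as well and were not tested, so the comparisons that follow are of FGF1 with vehicle within a day.

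**Figure D2:**
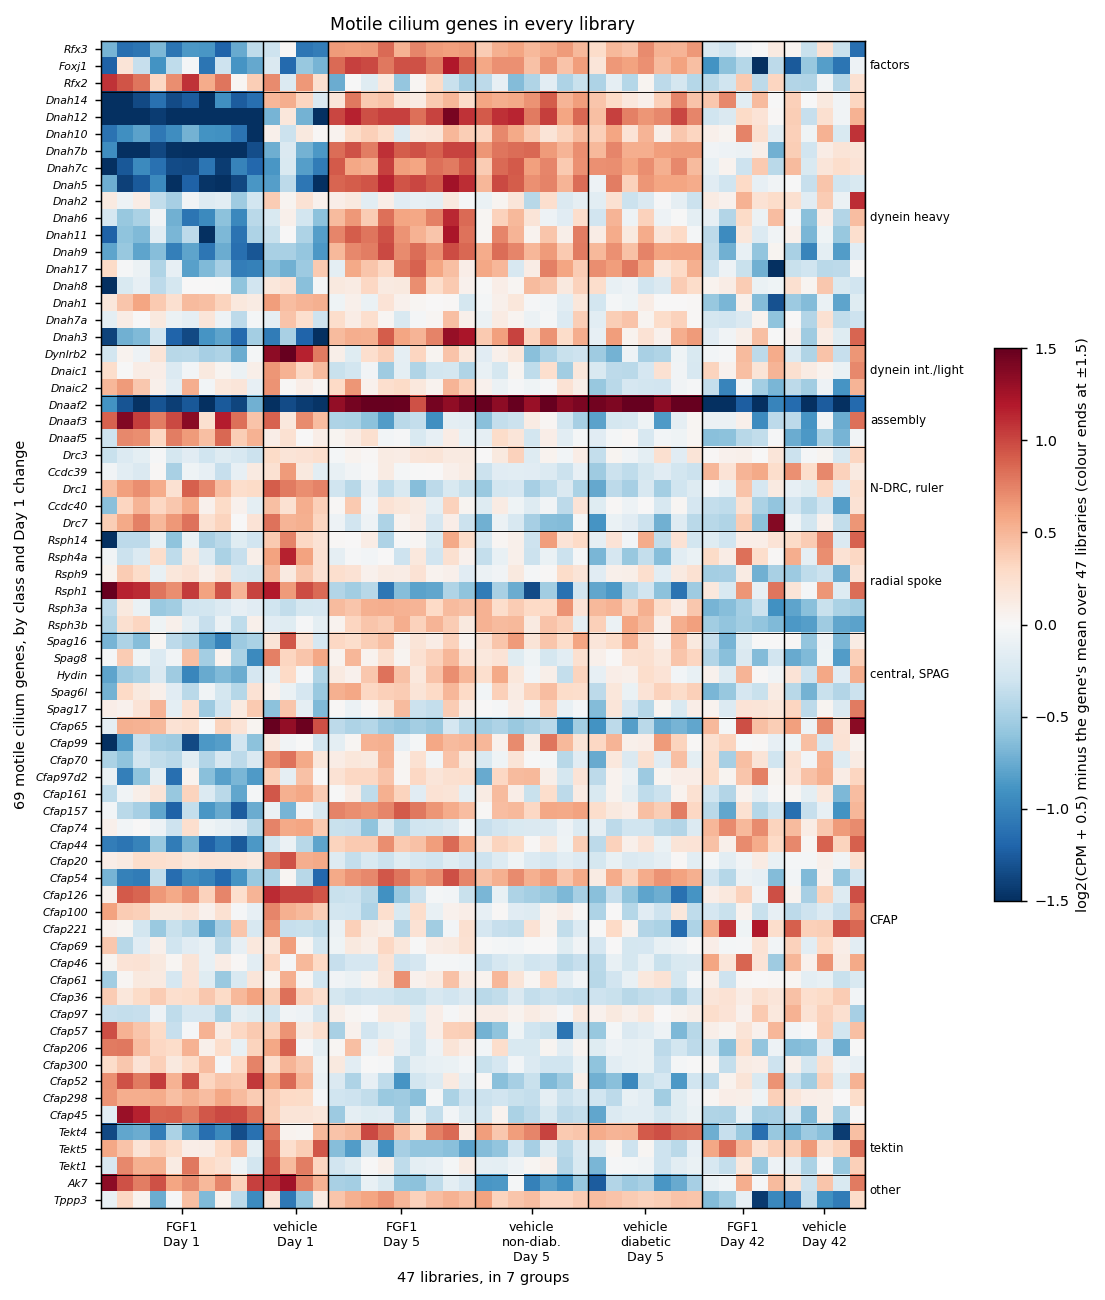
Level of the 69 motile cilium genes (rows, by class and by their Day 1 change) in each of the 47 libraries (columns, by group). Colour gives log2(CPM + 0.5) minus the gene's mean over all libraries, blue for lower and red for higher, with the colours ending at 1.5 in either direction. Day 5 libraries differ from the rest for many dyneins in all 3 groups, and Dnah14, Dnah12 and Tekt4 are bluer in the Day 1 libraries with FGF1 than in those with vehicle.

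On Day 1, FGF1-treated mice had lower levels of 22 of the 69 motile cilium genes and a higher level of 1, Cfap45. A gene was called at an adjusted p-value under 0.05 (edgeR quasi-likelihood test, Benjamini-Hochberg over 14221 genes) and an absolute log2 fold change above 0.5, and by this rule 8.05% of all genes were called lower and 11.5% higher. Dynein heavy chains, Dynlrb2, Tekt4, radial spoke and central apparatus genes and 9 CFAP genes were among the lower ones, while the transcription factors and dynein assembly factors were not. The median log2 fold change over the members was -0.30 (interquartile range -0.61 to -0.03) against 0.01 over all genes, and 53 of 69 were negative. By adjusted p alone 31 members were lower (21.6% of all genes) and 3 higher (3322 of the 14221 genes). In 14 members every FGF1-treated mouse lay below every vehicle-treated mouse, which held for 6.81% of all genes, and 12 of these were among the 22.

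The summed level of the 69 members was 976 to 1126 CPM in FGF1-treated mice (median 1047) and 1111 to 1399 CPM in vehicle-treated mice (median 1280) of Day 1. The groups overlapped slightly in this sum. The mean of the members' centred log2 levels, in which each gene weighs the same, ran from -0.34 to -0.07 in FGF1-treated mice and from -0.08 to 0.25 in vehicle-treated mice, overlapping by 1 vehicle library.

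**Figure D3:**
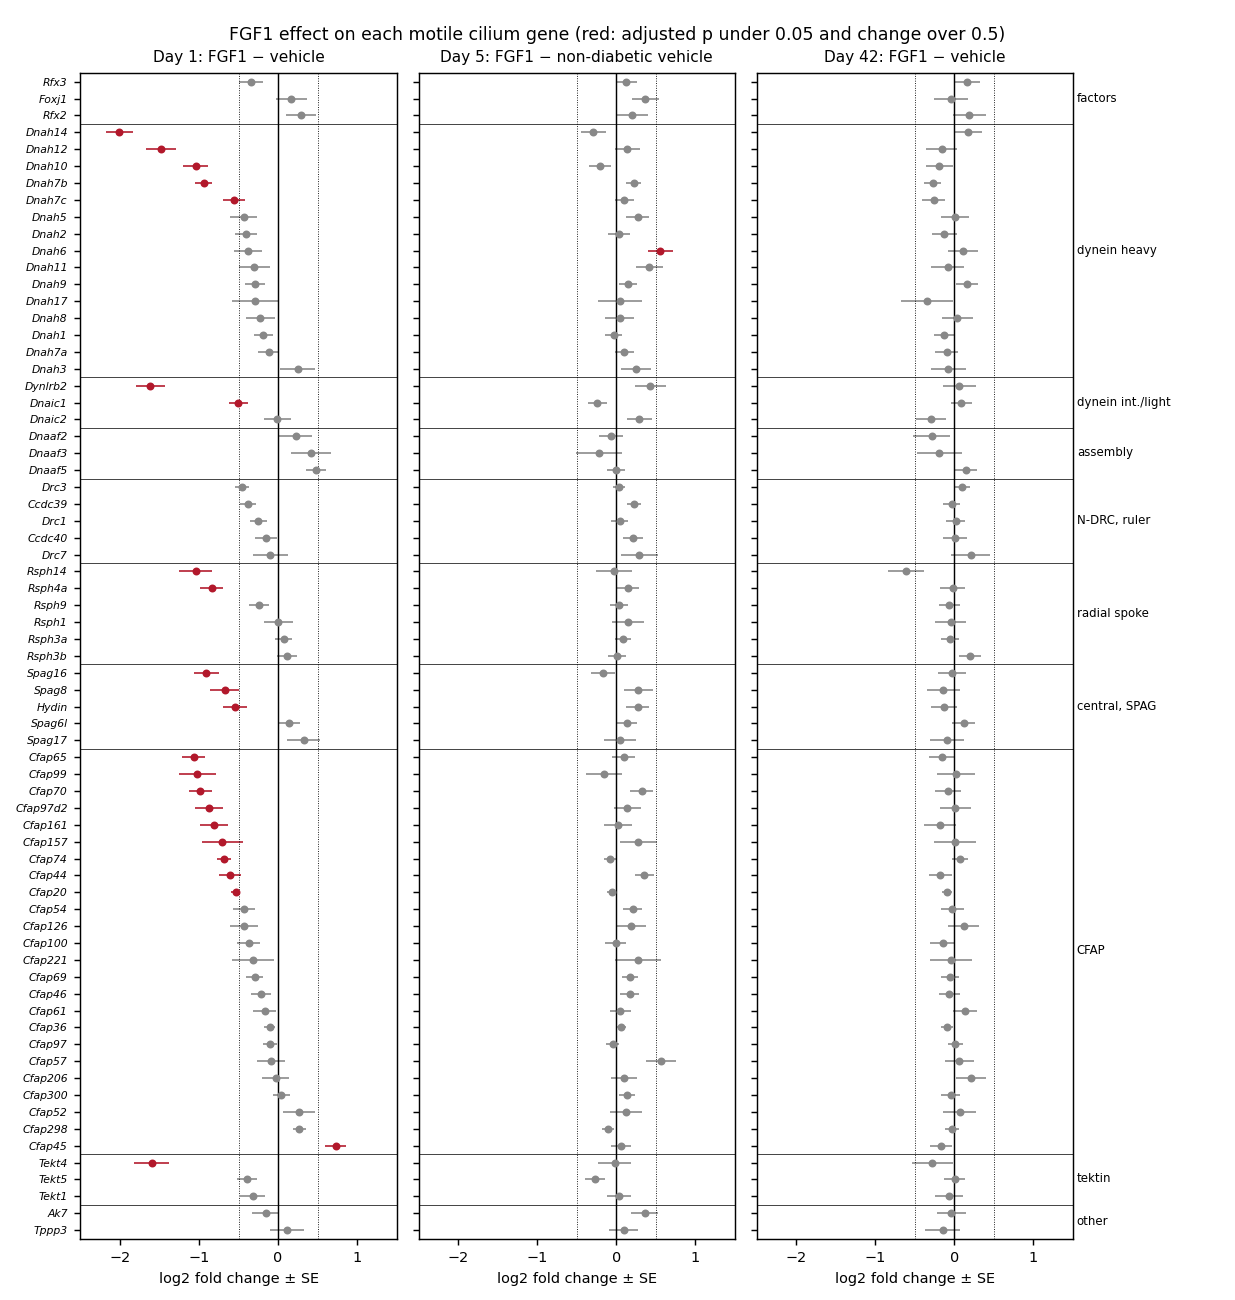
Log2 fold change of FGF1 against vehicle with its SE for each of the 69 members (rows, by class) on Day 1, on Day 5 against the non-diabetic vehicle group and on Day 42. Red points were called, and dotted lines mark 0.5 in either direction. On Day 1 there are 22 red points on the left and 1 on the right, on Day 5 there is 1, and on Day 42 there is none.

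None of the 3 transcription factors was called on Day 1. Foxj1, the forkhead factor required for motile cilia (chr11:116330704-116335399, minus strand), measured 5.70 to 15.9 CPM in FGF1-treated mice with a median of 9.23, and 11.9, 5.93, 9.17 and 8.40 CPM in vehicle-treated mice. The groups lay on top of each other, and the log2 fold change was 0.17 ± 0.20 (SE, adjusted p = 0.516 by edgeR). Rfx2 measured 4.09 to 8.98 CPM (median 7.03) and, in vehicle-treated mice, 6.81, 3.39, 6.56 and 4.81 CPM, a log2 fold change of 0.29 ± 0.19 (adjusted p = 0.215). Rfx3 was at 26.8 to 47.9 CPM (median 34.0) against 50.2, 62.9, 29.3 and 30.2 CPM in vehicle-treated mice, with a log2 fold change of -0.34 ± 0.15 (adjusted p = 0.0608).

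Dynein heavy chains carry the motor of the outer and inner arms. Of 15 members of this class 5 were lower on Day 1 (Dnah14, Dnah12, Dnah10, Dnah7b and Dnah7c), none was higher, 14 had a negative log2 fold change and the median was -0.38. Dnah14 (chr1:181576559-181815774, plus strand) showed the largest difference of all members. Its level was 0.451 to 1.51 CPM in FGF1-treated mice with a median of 1.05, and 4.86, 5.05, 4.24 and 2.76 CPM in vehicle-treated mice. Every FGF1-treated mouse was below every vehicle-treated mouse, and the level was 4.03-fold lower (log2 fold change -2.01 ± 0.17 SE, adjusted p = 2.14e-13). Exons of Gm37664, Gm23690 and Lbr on the opposite strand overlap this gene, the largest overlap being 440 bases. The way the deposited counts treat strand is not given in the sources used here.

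Dnah12, an inner arm chain (chr14:26693274-26891703, plus strand), was at 1.80 to 3.93 CPM (median 2.66) in FGF1-treated mice and at 6.84, 12.9, 6.77 and 3.56 CPM in vehicle-treated mice. The lowest vehicle-treated mouse, replicate 30, lay within the FGF1 range, and the level was 2.78-fold lower (log2 fold change -1.48 ± 0.19, adjusted p = 1.33e-08). Dnah10, also an inner arm chain, measured 2.92 to 5.49 CPM (median 4.68) against 9.89, 7.37, 10.3 and 9.41 CPM, without overlap (log2 fold change -1.04 ± 0.16, adjusted p = 5.5e-07). Dnah7b measured 11.3 to 20.4 CPM (median 13) against 21.4 to 33.8 CPM in the vehicle group, again without overlap, with a log2 fold change of -0.94 ± 0.11 (adjusted p = 4.56e-10). Dnah7b is nearly identical to Dnah7a and Dnah7c, among which reads could be split, so their sum is also given. Summed over the 3 genes, FGF1-treated mice were at 22.3 to 29.3 CPM and vehicle-treated mice at 31.9 to 52.4 CPM, which do not overlap either.

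Of the 3 dynein intermediate and light chains, which hold the arms together and attach cargo, 2 were lower. Dynlrb2, a light chain of the roadblock type (chr8:116504974-116515915, plus strand), was at 2.22 to 4.68 CPM (median 3.10) in FGF1-treated mice and at 11.0, 13.3, 9.59 and 7.30 CPM in vehicle-treated mice. All FGF1-treated mice were lower than all vehicle-treated mice, by 3.06-fold (log2 fold change -1.62 ± 0.18, adjusted p = 7.1e-10). Dnaic1, an intermediate chain of the outer arm, measured 5.15 to 7.33 CPM (median 6.33) against 7.59 to 9.84 CPM, a log2 fold change of -0.50 ± 0.12 (adjusted p = 0.000883) that just passed the fold threshold. Dnaic2, the partner of Dnaic1, had a log2 fold change of -0.01 (adjusted p = 0.968).

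Assembly factors put dynein arms together in the cytoplasm, and none of the 3 was called. All 3 had positive log2 fold changes, with a median of 0.42. Dnaaf5 was higher by adjusted p alone, with a log2 fold change of 0.48 (adjusted p = 0.00156) under the fold threshold. In the nexin-dynein regulatory complex and the molecular ruler that sets its spacing, all 5 members had negative log2 fold changes and none was called. Drc3 came nearest, at -0.46 (adjusted p = 2.57e-05), with every FGF1-treated mouse below every vehicle-treated mouse. Ccdc39, a ruler protein (chr3:33812362-33844310, minus strand) that shares 1256 exon bases with Ttc14 on the opposite strand, measured 24.7 to 38.2 CPM (median 31.8) against 40.8, 54.4, 38.5 and 31.0 CPM, a log2 fold change of -0.38 ± 0.10 (adjusted p = 0.00136). Its partner Ccdc40 had -0.15 (adjusted p = 0.392).

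Radial spoke genes were lower in 2 of 6 cases and the median of the class was -0.12. Rsph14 (chr10:74957477-75032586, minus strand) was at 0 to 1.15 CPM (median 0.852) in FGF1-treated mice and at 1.84, 2.48, 1.70 and 1.56 CPM in vehicle-treated mice. The groups did not overlap, though the 0 is in the shallow replicate 17, where it allows up to 2.44 CPM, and the log2 fold change was -1.04 ± 0.21 (adjusted p = 5.31e-05). Under quantile normalization with limma the adjusted p was 0.217. Rsph4a, a spoke head protein, had a log2 fold change of -0.84 ± 0.14 (adjusted p = 4.34e-06). Rsph9, the spoke gene with the highest mean, was not called.

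Central apparatus and SPAG genes were lower in 3 of 5 cases with a median of -0.54. Hydin, a very large protein of the central pair (chr8:110266977-110610253, plus strand), measured 4.94 to 8.72 CPM (median 6.58) in FGF1-treated mice and 9.45, 12.7, 10.1 and 7.36 CPM in vehicle-treated mice. Replicate 30 of the vehicle group lay within the FGF1 range, and the log2 fold change was -0.54 ± 0.16 (adjusted p = 0.0039). Without vehicle replicate 28, the highest, it was -0.40 (adjusted p = 0.0602) and no longer called. Spag16 had -0.91 ± 0.16 (adjusted p = 7.18e-06) and Spag8 -0.67 ± 0.18 (adjusted p = 0.00234), while Spag17 had 0.32 (adjusted p = 0.208). Spag6l, which had the highest mean level of the class, had 0.14 (adjusted p = 0.405).

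The CFAP genes are the largest class, with 24 members of varied place in the axoneme. On Day 1, 9 were lower (Cfap65, Cfap99, Cfap70, Cfap97d2, Cfap161, Cfap157, Cfap74, Cfap44 and Cfap20), 1 was higher, 20 had a negative log2 fold change and the median was -0.34. Cfap65 (chr1:74902071-74935599, minus strand), known for a role in sperm flagella, was at 15.5 to 24.9 CPM (median 20.2) in FGF1-treated mice and at 50.1, 43.2, 48.1 and 33.8 CPM in vehicle-treated mice. The groups were well apart, with a log2 fold change of -1.07 ± 0.14 (adjusted p = 4.06e-08), and its exons overlap the opposite-strand gene Gm15841. Cfap20, an inner junction protein of the doublets, had a small but even difference, at 62.7 to 70.0 CPM (median 66.5) against 85.2 to 113 CPM, with a log2 fold change of -0.54 ± 0.06 (adjusted p = 2.39e-10). Cfap70 had -0.98 ± 0.15 (adjusted p = 4.04e-07) and Cfap74 -0.68 ± 0.09 (adjusted p = 4.27e-08), both without overlap of the groups.

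Cfap45, a protein inside the doublet microtubules (chr1:172520801-172545870, plus strand), was the member that went the other way. It measured 8.15 to 23.2 CPM (median 17.5) in FGF1-treated mice and 11.9, 10.5, 10.5 and 10.3 CPM in vehicle-treated mice. The lowest FGF1 value is that of the shallow replicate 17, and the other 9 FGF1-treated mice were at 15.8 CPM or more, above all vehicle-treated mice. The level was 1.66-fold higher (log2 fold change 0.73 ± 0.13, adjusted p = 1.36e-05). Under quantile normalization with limma it stayed just under the fold threshold, at 0.50.

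Tektins are filaments inside the doublets. Tekt4 (chr17:25454615-25476602, plus strand) was at 0.815 to 1.93 CPM (median 1.19) in FGF1-treated mice and at 5.33, 2.99, 2.98 and 4.24 CPM in vehicle-treated mice. The groups did not overlap and the level was 3.02-fold lower (log2 fold change -1.60 ± 0.22, adjusted p = 7.82e-08). Tekt5 had a log2 fold change of -0.39 (adjusted p = 0.00745), under the fold threshold. Of the remaining members, Tppp3 had 0.11 ± 0.21 (adjusted p = 0.683). Ak7, an adenylate kinase of motile cilia, measured 13.3 to 26.9 CPM (median 17.7) against 22.4, 25.4, 17.9 and 15.0 CPM, and had -0.16 ± 0.17 (adjusted p = 0.468).

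**Figure D4:**
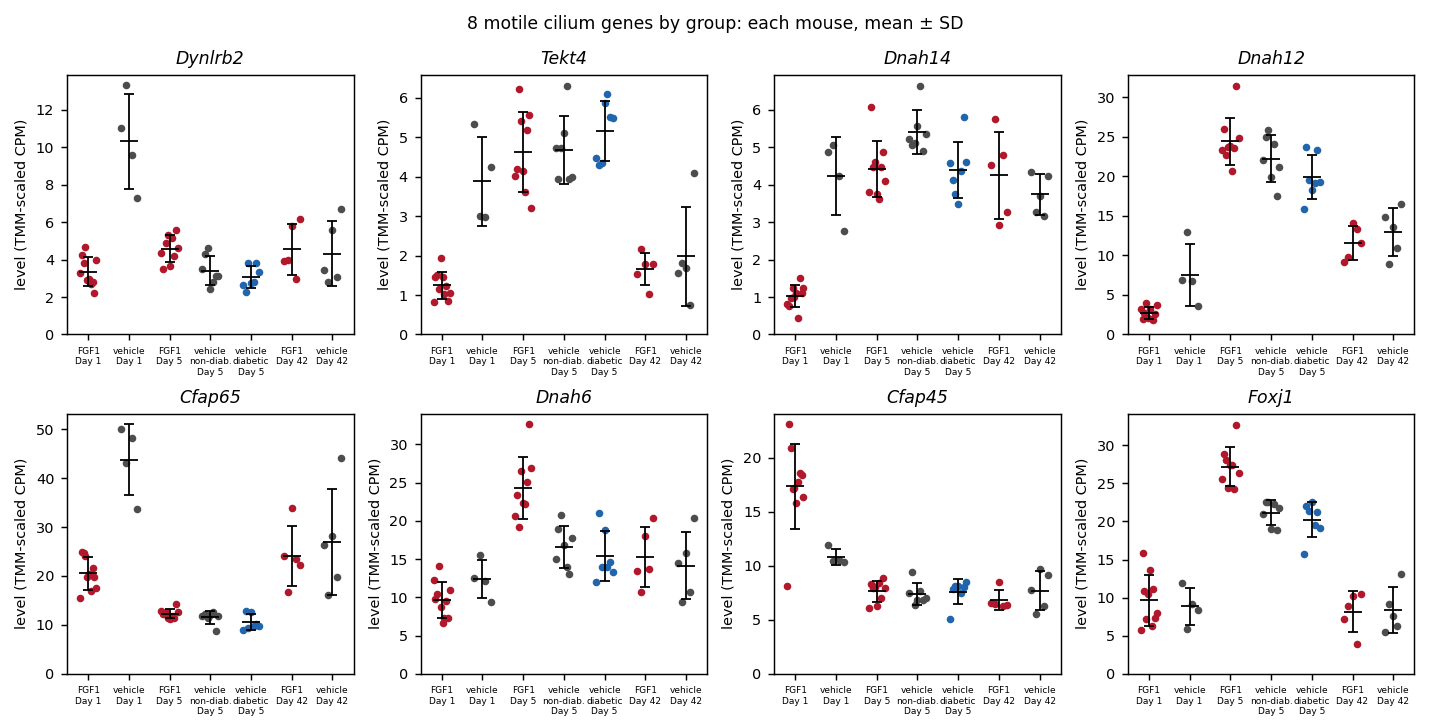
Level in TMM-scaled CPM (y axis, from 0) of 8 motile cilium genes in the 7 groups (x axis). Each point is a mouse and bars give the mean ± SD. On Day 1 the FGF1-treated mice lie below the vehicle-treated mice for Dnah14, Dynlrb2, Tekt4 and Cfap65, and all but the lowest lie above them for Cfap45.

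The Day 1 vehicle group of 4 mice set the precision. Replicate 28 was the highest of the 4 for 34 members (38.8% of all genes), among them 15 of the 19 members with 10 kb of exon or more, and replicate 30 was the lowest for 39 (26% of all genes). Without replicate 28, 18 members were lower and 3 higher, and without replicate 30, 24 were lower and 1 higher. Without the shallow FGF1-treated replicate 17, 22 were lower and 2 higher. Over all 14221 genes, 909 were lower and 1426 higher without replicate 28, and 1264 and 1824 without replicate 30. Without replicate 17 these were 1171 and 1648. Of the 19 members with exons of 10 kb or more 6 were lower and their median was -0.38, against 6.40% lower and a median of -0.08 among 1452 genes of that length. Among the 38 members under 5 kb, 12 were lower with a median of -0.24, against 8.64% and 0.04 among 7838 genes.

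On Day 5 few motile cilium genes passed the test, as did few of all genes. Against the vehicle group labelled non-diabetic, Dnah6 was higher and no other member was called (1.31% of all genes were called higher). Over all genes 186 were higher and 33 lower in that comparison, and 335 were higher and 71 lower against the diabetic group, so higher calls outnumbered lower calls among all genes too. The median log2 fold change was 0.10 against -0.01 over all genes, 52 of 69 were positive, and 11 members had an unadjusted p under 0.05, as did 2348 of the 14221 genes. Against the vehicle group labelled diabetic, 5 members were higher (2.36% of all genes) and 1, Tekt5, was lower (0.499% of all genes), with a median of 0.15 and 56 positive. Both comparisons use the same 9 FGF1-treated mice.

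Dnah6, an inner arm dynein chain (chr6:73017606-73221651, minus strand), measured 19.3 to 32.7 CPM (median 23.3) in FGF1-treated mice of Day 5, 13 to 20.7 CPM (median 16.8) in non-diabetic and 12.0 to 21 CPM (median 13.9) in diabetic vehicle-treated mice. The FGF1 range overlapped both, and the level was 1.47-fold higher (log2 fold change 0.56 ± 0.16, adjusted p = 0.0255) and 1.59-fold higher (0.67 ± 0.16, adjusted p = 0.00316), respectively. The call against the non-diabetic group was lost without any of vehicle replicates 1, 5 or 6 or FGF1 replicate 8, and without both deepest FGF1 libraries.

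Dnaic2 measured 8.85 to 13.8 CPM (median 10.5) in FGF1-treated mice, 8.01 to 10.0 CPM (median 8.46) in the non-diabetic and 5.59 to 8.40 CPM (median 6.98) in the diabetic vehicle group. It was clear of the diabetic group only, with a log2 fold change of 0.60 ± 0.16 (adjusted p = 0.0119), against 0.29 (adjusted p = 0.369) for the non-diabetic group. The outer arm chains Dnah11 and Dnah5 had log2 fold changes of 0.55 ± 0.17 (adjusted p = 0.032) and 0.52 ± 0.15 (adjusted p = 0.0165) against the diabetic group. These calls were lost in 8 of 22 alternatives for Dnah11 (adjusted p of up to 0.123) and in 4 of 23 for Dnah5 (up to 0.0689). Dynlrb2 had 0.58 ± 0.19 (adjusted p = 0.0478) against it and 0.43 (adjusted p = 0.235) against the non-diabetic group, and the former call was lost in 16 of 22 alternatives, with an adjusted p of up to 0.14. Tekt5 was at 4.32 to 6.52 CPM (median 5.35) in FGF1-treated mice and at 6.33 to 8.72 CPM (median 7.42) in the diabetic vehicle group, a log2 fold change of -0.51 ± 0.12 (adjusted p = 0.00422). In 8 of 23 alternatives it came under the fold threshold, at the least to -0.47.

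Foxj1 was not called on Day 5, and its lowest level in the 9 FGF1-treated mice was above its highest in both vehicle groups. It measured 24.2 to 32.7 CPM (median 27.4) in FGF1-treated mice, 18.8 to 22.6 CPM (median 21.7) in the non-diabetic and 15.8 to 22.5 CPM (median 21.3) in the diabetic vehicle group. The log2 fold changes were 0.37 ± 0.17 (adjusted p = 0.263) and 0.43 ± 0.17 (adjusted p = 0.109). Ccdc39 showed the same separation, at 32.0 to 38 CPM (median 34.7) against 27.7 to 32.0 CPM (its highest value just under the lowest FGF1 value) and 23.8 to 30.9 CPM, with log2 fold changes of 0.23 (adjusted p = 0.161) and 0.34 ± 0.09 (adjusted p = 0.00984). Against the non-diabetic group these were the 2 members without overlap (2.38% of all genes), and against the diabetic group there were 5, with Dnah5, Dnah7b and Dnaic2 (3.63% of all genes).

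The vehicle groups of Day 5 did not differ in any member by the test. Between diabetic and non-diabetic vehicle-treated mice no member and no gene of the 14221 was called with edgeR, nor any member with DESeq2, and no member and 193 genes had an unadjusted p under 0.05. The median log2 fold change of the members was -0.08, with 50 of 69 negative.

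The FGF1 effect on Day 5 was compared with that on Day 1 as a difference of contrasts, which contains the Day 1 comparison itself. It was higher in 26 members (7.28% of all genes) and lower in 1, Cfap45 (8.52% of all genes), and the median difference was 0.44 against -0.02 over all genes. Of the 22 members that were lower on Day 1, 20 were among these 26 (90.9% of the 22 and 76.9% of the 26), the exceptions being Dnaic1 and Cfap20. Over all genes, 775 of the 1145 that were lower on Day 1 were among the 1035 with a higher difference (67.7% and 74.9%). The difference was 2.05 for Dynlrb2 (adjusted p = 6.44e-08), 1.72 for Dnah14 (adjusted p = 1.76e-07), 1.62 for Dnah12 (adjusted p = 2.02e-06) and 1.58 for Tekt4 (adjusted p = 9.05e-05). On Day 5 itself the 22 members had a median log2 fold change of 0.10, and 13 of them were positive. Dnah14 for example was at 3.62 to 6.07 CPM with FGF1 and 4.89 to 6.63 CPM with non-diabetic vehicle on Day 5, and Tekt4 at 3.21 to 6.22 and 3.93 to 6.31 CPM, with the groups overlapping.

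On Day 42 no member and none of the 14221 genes (0%) was called with edgeR, and DESeq2 called no member either. Without FGF1-treated replicate 7, 25 genes were called higher and 6 lower, and still no member. An unadjusted p under 0.05 was found for 2 members and 776 genes. The median log2 fold change of the members was -0.04 against -0.01 over all genes, with 42 of 69 negative. For Dynlrb2 the FGF1-treated mice measured 3.90, 3.98, 5.80, 2.97 and 6.16 CPM and the vehicle-treated mice 3.45, 2.81, 5.59, 3.07 and 6.69 CPM, the same range. Foxj1 was at 7.24, 8.85, 10.2, 3.97 and 10.5 CPM with FGF1 and 5.49, 9.19, 7.64, 6.26 and 13.1 CPM with vehicle. The members with an unadjusted p under 0.05 were Rsph14, with a log2 fold change of -0.61 (adjusted p = 0.587), and Dnah7b, with -0.28 (adjusted p = 0.734). The 22 members lower on Day 1 had a median of -0.11 on Day 42, and 21 of them were within 0.5 of 0. The FGF1 effect on Day 42 was not called different from that on Day 5 in any member with edgeR, DESeq2 or limma (0.717% of all genes by edgeR), and 3 members and 1419 genes had an unadjusted p under 0.05. Vehicle replicate 16 was the highest of its group for 41 of the 69 members (36.6% of all genes).

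Other cilium genes were measured from lists of their own. Of 23 ependymal genes outside the chosen set, 8 were lower and 1 higher on Day 1, with a median of -0.36 and a sum of 330 to 402 CPM against 336 to 450 CPM. Ccdc153, an ependymal marker, had a log2 fold change of -2.33 (adjusted p = 1.06e-12), while Cd24a, a surface glycoprotein also found on immune and young neuronal cells, had 0.81 (adjusted p = 1.96e-06). Of 70 other axoneme and dynein docking genes 48 were in the table under the symbols listed. Of these 48 genes, 12 were lower and 2 higher, with a median of -0.30. Fbxl13, a dynein regulatory complex gene, had -1.86 (adjusted p = 2.62e-07), and Dnajb13, a radial spoke protein, -1.15 (adjusted p = 9e-07). Dnajb13 was higher on Day 5, by 1.19 (adjusted p = 9.95e-05). Of the same 48 genes, 2 were higher on Day 5 against the non-diabetic and 8 against the diabetic vehicle group, and none was called on Day 42.

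Of 21 genes listed for the multiciliation programme, which acts upstream of ciliary assembly, only 15 were in the table, so the programme was measured in part. On Day 1, 2 of these 15 were called, E2f4 higher and Rfx7 lower. Intraflagellar transport and BBSome genes, which serve primary cilia too, were higher in 3 and lower in 2 of 42 cases, with a median of -0.04. Shares of calls in these 2 lists were below those of all genes (8.05% lower and 11.5% higher).

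**Figure D5:**
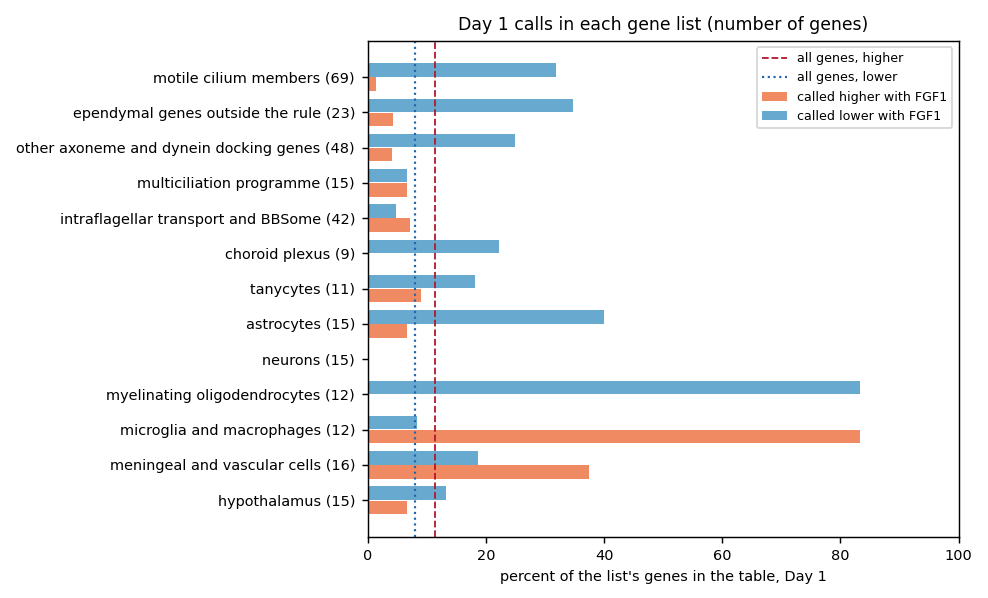
Share of the genes of each list called lower (blue) or higher (orange) with FGF1 on Day 1, in percent of the list's genes in the table, whose number stands after its name. Dashed and dotted lines give the share of all genes called higher (11.5%) and lower (8.05%). The members and the other axonemal and ependymal lists have more lower than higher calls, the myelin list has 10 of 12 genes lower and the microglia list 10 of 12 higher.

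Markers of other cells moved with FGF1 on Day 1 as well. Of 12 myelin genes 10 were lower, with a summed level of 2404 to 4487 CPM against 4027 to 5817 CPM in vehicle-treated mice. Of 12 microglia and macrophage genes 10 were higher and 1 lower (300 to 438 against 247 to 287 CPM), and of 16 meningeal and vascular genes 6 were higher and 3 lower (287 to 722 against 305 to 535 CPM). Of 15 astrocyte genes 6 were lower and 1 higher, with sums of 7121 to 8328 and 7174 to 8303 CPM, the higher one being Gfap with a log2 fold change of 2.81 (adjusted p = 1.08e-16). Tanycyte genes, which mark the ventricular cells next to the ependyma, were lower in 2 and higher in 1 of 11 cases (237 to 353 against 297 to 463 CPM). Of 17 choroid plexus genes listed 9 were in the table, and 2 of these were lower (50.5 to 82.6 against 74.5 to 101 CPM). Of 15 hypothalamic genes 2 were lower and 1 higher (894 to 1298 against 1320 to 1646 CPM), and none of the 15 neuronal genes was called (6040 to 7310 against 7455 to 8998 CPM). No gene of these lists was at 0 in all libraries of a group. Their part in the Day 1 result was not tested.

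On Day 5 the myelin sum was 6956 to 7945 CPM with FGF1, 5046 to 6620 CPM in the non-diabetic and 4573 to 6738 CPM in the diabetic vehicle group, and 5 of 12 genes were higher in either comparison. The astrocyte sum was 8022 to 8478 CPM with FGF1, 7142 to 7552 CPM in the non-diabetic and 7134 to 7966 CPM in the diabetic vehicle group, without overlap, and 2 of 15 genes were higher in either comparison. The 23 ependymal genes outside the chosen set had medians of 0.11 and 0.27, with 1 and 2 genes higher, respectively. The microglia list was higher in 2 genes against the non-diabetic and in 10 against the diabetic group. The part of these lists in the Day 5 values was not tested either. On Day 42 no gene of these lists was called. The choroid plexus list then summed to 354 CPM in FGF1-treated replicate 11, while the other FGF1-treated mice were at 84.2 to 105 CPM and the vehicle-treated mice at 76.2 to 134 CPM, with medians of 101 and 98.1 CPM.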

How the data were processed

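RNA of hypothalamic punches from 47 mice was sequenced from strand-specific libraries. Per the labels and the study's methods, the authors aligned the reads with STAR and deposited raw, unnormalized whole-number counts for each gene. The counting program, its strand setting and any filter are not given in the sources used here, and the labels name a human build, GRCh38, for these mouse reads. Library factors (TMM) were computed and the 7 groups were modelled together in edgeR 4.0.16 (R 4.3.3, quasi-likelihood F test, two-sided, Benjamini-Hochberg over 14221 genes). P-values measure the spread between mice. The SE given is the absolute log2 fold change divided by the square root of the F statistic, and it need not match the p-value exactly. A call needed an adjusted p below 0.05 with a log2 fold change beyond 0.5 in either direction. The members and lists were chosen with earlier results of these data known. Named genes are the 9 taken by name, members called in a comparison within a day (at most the 6 with the largest change per direction), and the member with the highest mean log2 CPM of each class. Other members are named to account for a class's calls or examples. Exon lengths, overlaps and gene coordinates are from GENCODE M21 on GRCm38, in which all 69 members were found and 28 share exons with another gene. Promoters are from RefSeq (GRCm38.p6). Alternatives were DESeq2 1.42.0, its size factors, upper-quartile factors, quantile normalization with limma 3.58.1, other filters and samples, and libraries left out. The programs were tested on simulated data.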

Additional observations from a re-analysis of the deposited data

Results flagged for a closer look

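Some members had a mouse far from the rest of its group, in 15 of 182 groups checked, where chance gives about 5%. Values are in CPM. Cfap45 did so in 5 groups, with 8.15 the lowest on Day 1 with FGF1 (replicate 17, the shallow library), 11.9 the highest with vehicle on Day 1 (replicate 27), 9.44 the highest with non-diabetic vehicle (replicate 2) and 5.08 the lowest with diabetic vehicle on Day 5 (replicate 1), and 8.53 the highest with FGF1 on Day 42 (replicate 9). The same Day 42 mouse had the highest Ccdc40, at 12.2, and the highest Rsph9, at 21.4, of its group. In vehicle-treated mice of Day 1, Dnaic2 was at 13.9 in replicate 27 and Cfap36 at 177 in replicate 28, both the highest. In non-diabetic vehicle-treated mice of Day 5, Ak7 was highest at 10.1 in replicate 3, Dnah14 highest at 6.63 in replicate 5 and Cfap65 lowest at 8.82 in replicate 6. In FGF1-treated mice of Day 5, Dnah12 was highest at 31.4 in replicate 8 and Rsph9 lowest at 17.3 in replicate 9. Rsph14 was at 0 in FGF1-treated replicate 17 of Day 1, where a count of 0 allows up to 2.44 CPM.

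The log2 effect of FGF1 differed between Day 5 and Day 1 for 12 of the 25 named members by the test of the difference in edgeR. Many of these were named because they were called on Day 1 or Day 5, and those values are part of this difference. The count is therefore no separate result. Over all genes 7.28% were higher and 8.52% lower. Beside Dynlrb2 at 2.05, Dnah14 at 1.72, Dnah12 at 1.62 and Tekt4 at 1.58, these were Cfap65 at 1.16 (adjusted p = 2.39e-05), Rsph14 at 1.02 (adjusted p = 0.0105), Dnah6 at 0.94 (adjusted p = 0.00192), Hydin at 0.81 (adjusted p = 0.00302), Dnah11 at 0.72 (adjusted p = 0.0324), Dnah5 at 0.71 (adjusted p = 0.0157), Ccdc39 at 0.61 (adjusted p = 0.000463) and, in the other direction, Cfap45 at -0.67 (adjusted p = 0.00433). Day and preparation cannot be told apart in these differences.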

How the results depend on the processing

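The filter on low counts removed 0 genes, so the setting without it could not change a value and is not counted here. With at least 10 counts in every library 33 members could be tested, and on Day 1 8 were called (7 lower), on Day 5 3 against the diabetic vehicle group, and 15 for Day 5 against Day 1. Of the 10973 genes tested then, 711 were lower and 898 higher on Day 1. Against the diabetic group 29 were lower and 175 higher, and for Day 5 against Day 1 717 were lower and 722 higher. For FGF1 against non-diabetic vehicle on Day 5, 2 members were called with quantile normalization, with the fit of that day's libraries and with both vehicle groups merged, and 0 without both deepest FGF1 libraries, which left 2 against the diabetic group. In the settings with 2 members, 271, 303 and 313 of all genes were higher and 137, 67 and 59 lower. Without the deepest libraries 166 were higher and 21 lower, and against the diabetic group 278 and 49. With both vehicle groups merged 1 member was called for Day 42 against Day 5, where 52 of all genes were higher and 96 lower. Libraries were left out singly, on Day 1 only the 4 vehicle libraries and the shallow FGF1 library, on Days 5 and 42 all libraries of the comparison, for Day 5 against Day 1 the same 5 libraries of Day 1, and for Day 42 against Day 5 those of Day 42. Members called then ran from 21 to 25 on Day 1 (18 to 24 lower), 0 to 2 on Day 5 against the non-diabetic and 3 to 6 against the diabetic group, 21 to 32 for Day 5 against Day 1, 0 to 1 for Day 42 against Day 5, and were 0 on Day 42 and between the vehicle groups. Over all genes, 909 to 1264 were then lower and 1426 to 1824 higher on Day 1. On Day 5, 24 to 46 were lower and 143 to 212 higher against the non-diabetic group, and 54 to 74 and 287 to 346 against the diabetic group. For Day 5 against Day 1, 1002 to 1403 were lower and 816 to 1156 higher, and for Day 42 against Day 5, 48 to 83 and 7 to 71. The 3 calls against the diabetic group were left without vehicle replicates 1 or 7 or FGF1 replicates 4 or 8, and the 1 call for Day 42 against Day 5 came without FGF1 replicate 10 or vehicle replicate 13. Medians ran from -0.42 to -0.25 on Day 1, from 0.08 to 0.13 and 0.13 to 0.20 on Day 5, from -0.10 to -0.04 between its vehicle groups and from -0.11 to 0.08 on Day 42, where the sign changed without vehicle replicate 14 (0.0087) or 16 (0.08). The cause of these shifts was not tested. Of 242 values of named single genes under alternatives, 198 stayed on their side of the threshold, 44 lost their call and 0 reversed. On Day 1 Dnah14, Dynlrb2, Tekt4, Dnah12 and Cfap65 kept it in every alternative run for them, and against diabetic vehicle Dnah6 and Dnaic2 did. The Day 5 libraries left out and the fits without the deepest libraries were chosen after seeing the data. No paired analysis was possible because replicate numbers only name the mice, and the labels tie no number to a litter, cage or pair. The 4 vehicle-treated mice of Day 1 and the lower depth of Day 5 may limit what could be detected, and the part of depth was not tested.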

Other observations

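Of the 5 members higher against diabetic vehicle, Dnah6, Dnaic2, Dnah11 and Dnah5 were not called on Day 1, with log2 fold changes of -0.38 (adjusted p = 0.0715), -0.01, -0.30 (adjusted p = 0.205) and -0.43 (adjusted p = 0.0359), and Dynlrb2 was lower then, with -1.62, as were 22 of all 69 members. An overlap between these lists was not tested, and a gene called on 1 day and not on another is not thereby shown to differ. Rsph3a and Rsph3b, near-identical radial spoke genes, summed to 8.96 to 14.2 CPM with FGF1 and 9.99 to 11.1 CPM with vehicle on Day 1.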
